A study of Mus musculus with 48 samples.

Results

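Gene expression in the prefrontal cortex of Aag knockout mice was compared with that of wild types on postnatal day 5 (P5). Aag is the alkyladenine DNA glycosylase, and Mpg is the symbol of its gene. The comparison rests on 8 of the 48 RNA samples of the study, chosen by their labels: 4 from Aag KO (Aag-/-) and 4 from Aag WT males, all prefrontal cortex taken at 5 days of age. The study's other samples are hippocampus of the same age and both tissues at 6 weeks (6W) and as adults (6M). The design text gives 4 animals per time point. The strain background, the deleted exons, the relation between KO and WT litters and the limits of the dissection are not given in the sources used here. The p-values measure the spread between these samples, which the labels do not tie to single animals. The samples are called KO1 to KO4 and WT1 to WT4 by the numbers in their labels.

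The enzyme cuts alkylated and deaminated purines out of DNA, which opens base excision repair, after which an endonuclease, a polymerase and a ligase restore the strand. The prefrontal cortex at this age is a sheet of young projection neurons and interneurons, covered by the meninges and penetrated by growing vessels. The striatum lies directly beneath it. Its spiny projection neurons, which are GABAergic and fall into a direct and an indirect output pathway, express genes such as Drd1, Drd2, Penk, Six3 and Ppp1r1b that cortical neurons express weakly or not at all, so RNA from striatal tissue in a cortical sample can be read from them.

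Total counts were between 25955653 and 38382874 per library, and 3 counts, the floor taken here as a signal, corresponded to 0.0666 to 0.112 CPM, the count scaled to a fixed library total by the trimmed mean of M-values (TMM). Such floors cover counting error only. Mitochondrial genes took 6.33% to 12.4% of the counts. The 12 pairs of libraries within a genotype differed by 4.34 to 161 units of chi-square per degree of freedom, so no pair agreed within sampling noise. The labelled tissue was checked against a cortical and a hippocampal marker. Slc17a7, a glutamate transporter of cortical projection neurons, lay between 175 and 258 CPM in the 8 libraries. Spink8, a marker of hippocampal pyramidal neurons, was at or under 0.0580 CPM, below the floor. Other hippocampal markers were detected, with Zbtb20 at 153 to 308 CPM, Prox1 at 20.4 to 27.8 CPM and Ociad2 at 16.1 to 29.4 CPM. Fibcd1, Lct and C1ql2 were at most 4.55, 1.085 and 0.451 CPM. The check against hippocampal tissue thus rests on Spink8 alone.

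Libraries stood apart in 3 ways that bear on the results below, of which the first and the second were found in both genotypes. KO1 and WT1 held far more striatal marker RNA than the other 6 libraries. KO2, KO3, WT2 and WT4 held more of 6 olfactory bulb markers, with summed levels of 166, 155, 184 and 133 CPM, against 21.4 to 46.8 CPM in the other 4. Cdhr1, a cadherin of mitral and tufted cells, made up most of that sum. WT3 was low and WT4 high in meningeal markers, whose summed level was 868, 752, 565 and 436 CPM in KO1 to KO4 and 348, 232, 75.1 and 783 CPM in WT1 to WT4, so that all 4 KO libraries were above WT1, WT2 and WT3. In whole tissue, fewer cells of a type and less RNA per cell cannot be told apart.

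The genotype comparison called 9 of 18144 tested genes, or 0.0496%, at an adjusted p under 0.05 in edgeR's quasi-likelihood test. The 4 genes that rose in KO (0.0220% of those tested) were Aldh2, Gabra2, the pseudogene Gm12663 and the transcript E230020A03Rik. The 5 that fell (0.0276%) were Mpg itself, Ublcp1, Pttg1, Klhl32 and the noncoding transcript G530011O06Rik. In each of the 9 the 4 KO values and the 4 WT values did not overlap, which was the case for 604 of all tested genes (3.33%). At an unadjusted p under 0.05 there were 1503 genes (8.28%), of which 784 were higher (4.32%) and 719 lower (3.96%) in KO. The median log2 fold change over all tested genes was 0.027.

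**Figure D1:**
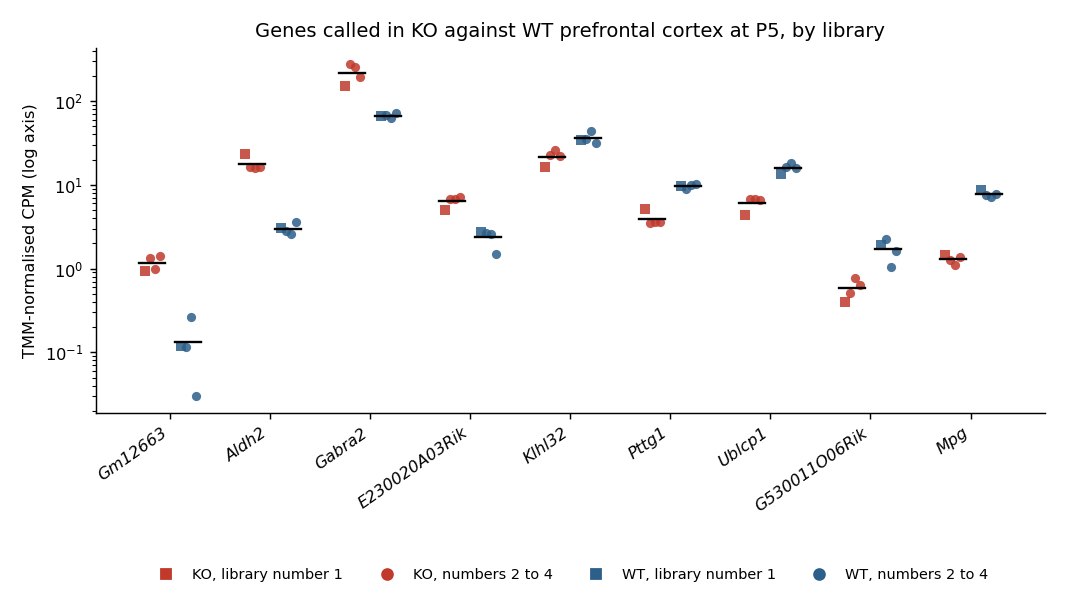
TMM-normalised CPM on a log axis for each of the 9 called genes, with KO libraries in red and WT libraries in blue. Squares mark library number 1, circles numbers 2 to 4 and bars the group means; the KO and WT points of each gene lie on separate levels, and KO1 sits outside the other KO libraries for Aldh2, Pttg1 and Ublcp1.

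The targeted gene was examined before the others, since it checks the labels. Mpg lies at 32226505 to 32232700 on chromosome 11 (GRCm38, plus strand). Its level was 1.47, 1.27, 1.12 and 1.36 CPM in KO1 to KO4 and 8.80, 7.51, 7.13 and 7.71 CPM in WT1 to WT4. Every KO library was far below every WT library, so none went against its label. The log2 fold change was -2.57 (SE 0.17) with an edgeR adjusted p of 6.82e-10, which puts the KO level at 16.8% of WT. Counts remained in KO, between 35 and 66 per library. Mpg overlaps Nprl3, which is read from the opposite strand, and whether strand was used in the counting is not given in the sources used here, so the origin of those counts was not tested. Nprl3 itself was at 0.13 (SE 0.13) on the log2 scale, at an unadjusted edgeR p of 0.341.

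Aldh2, the mitochondrial aldehyde dehydrogenase that oxidises acetaldehyde and lipid-derived aldehydes, had the highest fold rise of the called protein-coding genes. Its level was 23.2, 16.1, 16.1 and 16.2 CPM in KO1 to KO4 and 3.03, 2.81, 2.58 and 3.61 CPM in WT1 to WT4. The WT libraries were all low, and KO1 was above the other KO libraries. The log2 fold change was 2.57 (SE 0.14), a 5.94-fold rise with an edgeR adjusted p of 9.16e-12. The gene lies at 121566027 to 121593824 on chromosome 5. Among 18 tested genes of aldehyde metabolism, Aldh2 alone passed an unadjusted p of 0.05, where 8.28% of all tested genes did, and the median log2 fold change of the 18 was 0.087. Aldh8a1 and Adh7 had too few counts to be tested.

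Gabra2 encodes the alpha 2 subunit of the GABA-A receptor, the chloride channel that GABA opens. Its level was 150.5, 274, 257 and 193 CPM in KO1 to KO4 and 66.1, 68.0, 62.9 and 71.5 CPM in WT1 to WT4. The WT libraries were nearly equal, whereas the KO libraries spread widely with KO1 lowest. On the log2 scale the change was 1.70 (SE 0.18), a 3.26-fold rise with an edgeR adjusted p of 5.28e-06, and the gene lies at 70957597 to 71095849 on chromosome 5.

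Of 14 tested subunit genes of this receptor, 4 were lower in KO at an unadjusted p under 0.05 and Gabra2 alone was higher, against 3.96% and 4.32% of all genes, and 12 of the 14 had a log2 fold change under 0, with a median of -0.24. Among them Gabra4, an extrasynaptic alpha subunit, had a log2 fold change of -0.47 (SE 0.14), Gabrb2 -0.33 (SE 0.12) and Gabrg3 -0.17 (SE 0.081), with unadjusted edgeR p-values of 0.00264, 0.00929 and 0.0411. Gabra4 and Gabrb2 were each lowest in KO1. Gabra6 had too few counts to be tested. In 10 genes for the synthesis, transport and anchoring of GABA and its receptors, 0 passed an unadjusted p of 0.05, where 8.28% of all tested genes did, with a median of -0.022. With the striatal score described below as a covariate, 6 of the 14 were lower at an unadjusted p under 0.05, against 6.55% of all genes. Without KO1 and WT1, 3 were lower (2.65% of all genes), and with a score for meningeal RNA, described with the vessel markers, as a covariate 1 was (1.57%), so the count was between 1 and 6 over all settings.

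E230020A03Rik, a transcript with no assigned function, had 4.98, 6.84, 6.78 and 7.24 CPM in KO1 to KO4 and 2.70, 2.70, 2.58 and 1.48 CPM in WT1 to WT4. It was higher in every KO library, and WT4 was lowest. The log2 fold change came to 1.45 (SE 0.23) with an edgeR adjusted p of 0.0041, and the call was lost when only the 8 samples compared entered the fit (adjusted p 0.121). It lies at 36727177 to 36729562 on chromosome 7, inside the gene Tshz3 and on its strand, so reads of the 2 could be split between them. Gm38340, a neighbouring transcript also inside Tshz3 and named here after its values were seen, had 5.26, 2.35, 1.89 and 3.12 CPM in KO1 to KO4 and 1.47, 0.986, 1.38 and 0.873 CPM in WT1 to WT4. Its log2 fold change was 1.43 (SE 0.30), with an edgeR adjusted p of 0.127 and of 0.0463 with the striatal score as a covariate, and its groups did not overlap. Tshz3, a zinc finger transcription factor, had 114, 98.6, 93.8 and 116 CPM in KO1 to KO4 and 59.3, 82.2, 104 and 85.8 CPM in WT1 to WT4. Its groups overlapped, and its log2 fold change of 0.35 (SE 0.14) had an unadjusted edgeR p of 0.0208.

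Ublcp1, a phosphatase that acts on nuclear proteasomes, fell in KO while Gm12663, a processed pseudogene, rose, and the near-identity of their sequences makes the 2 values uncertain taken separately. The coding sequence of Ublcp1 has 954 bases, and Gm12663 differs from it at 5 bases and 1 gap (99.5% identity), so that 571 of 806 windows of 75 bases (70.8%), the length of the reads, hold no difference. The window below covers coding bases 407 to 481 of Ublcp1, on the minus strand within chr11:44463724-44465406 of GRCm38 (1683 bases, since an intron lies between), and is shown because it holds 2 of the differences. The sequences are those of the GENCODE M21 transcripts, written 5′ to 3′, and capitals mark the bases that differ, T25G and C75T, with positions counted from 1 at the 5′ end of the window and the Ublcp1 base given before the position.
Ublcp1: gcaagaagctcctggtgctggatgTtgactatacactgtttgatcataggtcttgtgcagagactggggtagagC
Gm12663: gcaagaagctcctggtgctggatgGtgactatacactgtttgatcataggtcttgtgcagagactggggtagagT

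Ublcp1 had 4.42, 6.81, 6.74 and 6.63 CPM in KO1 to KO4 and 13.6, 16.4, 18.3 and 15.7 CPM in WT1 to WT4. KO1 was lowest, and no KO library reached the WT range. The log2 fold change of Ublcp1 was -1.38 (SE 0.14) with an edgeR adjusted p of 1.32e-06. Gm12663 had 42, 45, 31 and 39 counts in KO1 to KO4 and 4, 4, 7 and 1 counts in WT1 to WT4, so its WT level rests on few reads. Its log2 fold change was 3.15 (SE 0.38) with an edgeR adjusted p of 4.4e-05, which became 0.0694 in the fit of the 8 samples alone. The rise of Gm12663 is small beside the fall of Ublcp1: their summed level was 5.35 to 8.17 CPM in KO and 13.7 to 18.6 CPM in WT, and the groups did not overlap. Ublcp1 lies at 44454571 to 44470498 on chromosome 11 and Gm12663 at 16635109 to 16636066 on chromosome 11.

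Pttg1 encodes securin, which holds the protease separase inactive until sister chromatids part. Its level was 5.22, 3.47, 3.58 and 3.58 CPM in KO1 to KO4 and 9.58, 8.91, 9.85 and 10.1 CPM in WT1 to WT4. The WT libraries were close together, and KO1 was above the other KO libraries. In log2 units the change was -1.27 (SE 0.16) at an edgeR adjusted p of 0.000104, and the gene lies at 43420250 to 43426251 on chromosome 11. Of 16 tested genes of cohesin and sister chromatid separation, Pttg1 alone passed an unadjusted p of 0.05, where 8.28% of all genes did, and the median was -0.15. Of 12 mitosis genes 0 passed, with a median of -0.10. With the striatal score as a covariate, 6 of the 16 were lower and 1 was higher at an unadjusted p under 0.05, against 6.55% and 4.72% of all genes, and Pttg1 was still the 1 gene called. In the fit without KO1 and WT1, and likewise with the meninges score, 1 of the 16 was lower and 0 were higher. The shares of all genes in these fits were 2.65% lower and 1.89% higher without the 2 libraries, and 1.57% and 1.37% with the score.

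Klhl32, a kelch-like protein expressed in brain, had 16.4, 22.8, 25.9 and 21.9 CPM in KO1 to KO4 and 34.5, 35.6, 43.9 and 31.2 CPM in WT1 to WT4. That put the log2 fold change at -0.74 (SE 0.13) with an edgeR adjusted p of 0.0123. KO1 was again the lowest library. The call was lost in 6 of 18 other settings, among them the fit without KO1 and WT1 (edgeR adjusted p 0.0987), the fit without WT3 (0.115) and the fit with a meninges score as a covariate (1). G530011O06Rik, a noncoding transcript that lies opposite Mid1 on the X chromosome, had 0.400, 0.512, 0.767 and 0.645 CPM in KO1 to KO4 and 1.92, 2.26, 1.04 and 1.63 CPM in WT1 to WT4. No KO library reached the WT range, but levels were low. Its log2 fold change was -1.58 (SE 0.29) with an edgeR adjusted p of 0.0315. The call was lost in 10 of 18 other settings, with adjusted p-values of up to 0.776, while the direction was the same in all 18.

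A further 11 genes were named, up to 10 in each direction, for the smallest unadjusted p at a mean log2 CPM of at least 2 and no overlap between the groups, which used this same contrast, so their values are a description. edgeR called none of them with all libraries, at adjusted p-values between 0.265 and 0.35. DESeq2 called 4 of the 11, Hmox1 and 9330162G02Rik at an adjusted p of 0.0242, Jun at 0.0418 and Mbnl1 at 0.0485. edgeR with no filter on low counts called 9330162G02Rik (adjusted p 0.0291) and ENSMUSG00000109836 (0.0465). The 6 that were higher in KO included Hmox1, the heme oxygenase induced by oxidative stress, with 6.51 to 9.77 CPM in KO and 3.81 to 6.28 CPM in WT (log2 fold change 0.72, SE 0.16). Jun, a stress- and activity-induced transcription factor, had 28.5 to 42.1 CPM in KO and 22.3 to 25.6 CPM in WT (0.44, SE 0.10). The other 4 were Sertm1, the cadherin Cdh4, the kinase Pskh1 and the exosome subunit Exosc4, with log2 fold changes of 0.46, 0.55, 0.66 and 0.44. Of 14 other immediate early genes 0 passed an unadjusted p of 0.05, where 8.28% of all tested genes did, with a median of 0.15.

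The 5 that were lower in KO included Mbnl1, a splicing regulator, with 25.6 to 34.1 CPM in KO and 37.4 to 41.9 CPM in WT (log2 fold change -0.38, SE 0.093). Rif1, which protects DNA ends from resection at double-strand breaks, had 16.4 to 25.7 CPM in KO and 29.6 to 32.4 CPM in WT (-0.50, SE 0.12). Itgb3, the integrin beta 3 subunit, had 3.44 to 5.09 CPM in KO and 5.09 to 7.17 CPM in WT (-0.62, SE 0.15), so KO4 and WT4 were equal to the digits printed. The remaining 2 were 9330162G02Rik, which lies opposite Ube3a, and ENSMUSG00000109836, which has no symbol or position in the annotation used, with log2 fold changes of -0.66 and -0.66. With the striatal score as a covariate, Hmox1 and ENSMUSG00000109836 were called at an edgeR adjusted p of 0.0463.

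Of the 9 called genes, 4 lie on chromosome 11: Mpg, Pttg1, Ublcp1 and Gm12663. The last 3 are 11.2, 12.2 and 15.6 Mb from Mpg. Within 20 Mb of Mpg 203 other genes were tested, of which 25 (12.3%) had an unadjusted p under 0.05, against 8.23% of the other tested genes. Of the 25, 19 were lower and 6 were higher in KO. They included Gabrb2, which lies 10.2 Mb from Mpg. Thg1l, a tRNA guanylyltransferase 13.7 Mb away that was picked after its values were seen, had 7.73, 8.05, 8.02 and 6.63 CPM in KO1 to KO4 and 5.98, 5.22, 5.97 and 5.39 CPM in WT1 to WT4, with a log2 fold change of 0.43 (SE 0.14) and an edgeR adjusted p of 0.516. The counts hold no sequence of the animals, so the loss of Aag and any difference carried by linked chromosome cannot be told apart.

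Whether the genotype effect at P5 differed between the prefrontal cortex and the hippocampus was tested as an interaction over all 48 samples. The labels do not say whether same-numbered samples of both tissues came from 1 animal, and the fit treats them as separate, so its p-values hold only if they are. Of 18849 genes, 1 (0.00531%) was called, and 765 had an unadjusted p under 0.05. The gene was Car14, a membrane carbonic anhydrase. It had 2.27, 1.81, 1.21 and 1.72 CPM in KO1 to KO4 and 0.961, 0.551, 0.522 and 1.69 CPM in WT1 to WT4, with WT4 inside the KO range. Its log2 fold change was 0.91 (SE 0.29) in prefrontal cortex and -2.05 (SE 0.36) in hippocampus, a difference of 2.96 with an edgeR adjusted p of 0.00823. In the hippocampus libraries 9 of 13 choroid plexus markers were lower in KO at an unadjusted p under 0.05 (4.35% of all genes were), with a median of -2.0, whereas in prefrontal cortex 0 of 9 passed, and their part in the Car14 difference was not tested. The call was lost without KO1 and WT1, and also without KO1 alone and without WT2 alone.

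For the 9 genes called at P5 in prefrontal cortex no difference between the tissues passed the threshold. Aldh2 had log2 fold changes of 2.57 in prefrontal cortex and 2.05 in hippocampus, and Gabra2 of 1.70 and 2.15. The edgeR adjusted p-values of these 2 differences were 0.758 and 1. In hippocampus, where 21 genes (0.118%) were called, 7 of the 9 were among them, and the other 2, Klhl32 and E230020A03Rik, had log2 fold changes of -0.46 and 0.39 there. The difference of E230020A03Rik between tissues was 1.06 with an edgeR adjusted p of 1, so a restriction of its rise to the prefrontal cortex is not shown.

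Against the later ages of the prefrontal cortex the P5 effect differed for 2 of 18144 genes (0.0110%), with 805 at an unadjusted p under 0.05. Pttg1 fell less at P5 than later, with log2 fold changes of -1.27 at P5, -5.46 at 6W and -5.77 at 6M. The P5 effect minus the mean of the later effects was 4.35 (edgeR adjusted p 2.85e-12). Aldh2 rose more at P5, with 2.57 against 1.47 and 1.60, a difference of 1.04 (edgeR adjusted p 0.0116). Without KO1 and WT1, 1 gene was called in this test, Pttg1, and the call of Aldh2 was also lost without WT2 alone and without WT3 alone. Mpg itself had -2.57 at P5 and -1.55 and -1.49 later, and the difference of -1.05 had an edgeR adjusted p of 0.197.

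The repair pathway that Aag belongs to showed small differences that did not pass correction. Of 26 other genes of base excision repair, 4 were higher and 1 was lower at an unadjusted p under 0.05, against 4.32% and 3.96% of all genes, and 0 were called. Their median log2 fold change was 0.11, and 21 of the 26 were above 0. The 4 were Ung, the uracil glycosylase, with 0.45 (SE 0.22), Nthl1, a glycosylase for oxidised pyrimidines, with 0.65 (SE 0.29), the scaffold Xrcc1 with 0.33 (SE 0.15) and the flap endonuclease Fen1 with 0.28 (SE 0.13). Mbd4, a thymine glycosylase, had -0.38 (SE 0.16). Xrcc1 had 13.3, 8.05, 7.92 and 10.7 CPM in KO1 to KO4 and 8.77, 8.15, 7.73 and 7.32 CPM in WT1 to WT4, so KO1 was the highest and the groups overlapped. Without KO1 and WT1, 1 of the 26 was higher and 0 were lower, against 1.89% and 2.65% of all genes. With the meninges score as a covariate 0 were higher and 1 was lower, against 1.37% and 1.57%.

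In lists for other ways of handling alkylated DNA and for its consequences, 1 of 6 genes of direct reversal and 3 of 17 targets of p53 passed an unadjusted p of 0.05, against 8.28% of all tested genes. Of the direct reversal genes Fto, an RNA and DNA demethylase, was higher in KO at 0.20 (SE 0.079) with an unadjusted edgeR p of 0.0186, and the median was 0.20. Of the p53 targets, Fas was higher (1.0, SE 0.44) and Sesn1 (-0.24, SE 0.086) and Zmat3 (-0.20, SE 0.092) were lower, and the median was 0.051. The edgeR adjusted p-values of these 4 genes lay between 0.57 and 0.597. Fas was at most 0.320 CPM in a library.

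Among the cell type lists, members past the threshold were most frequent for pericytes, endothelium and meninges. Of 27 markers of endothelium, pericytes and meninges, 12 were higher in KO at an unadjusted p under 0.05 and 0 were lower, against 4.32% and 3.96% of all genes. edgeR called none of them, and their median log2 fold change was 0.40. By list, 4 of 10 meningeal, 3 of 6 pericyte and 5 of 11 endothelial markers passed, with medians of 0.72, 0.36 and 0.26. Col1a1, a collagen of meningeal fibroblasts, had 120.1, 71.4, 49.1 and 43.4 CPM in KO1 to KO4 and 36.8, 27.1, 14.8 and 75.6 CPM in WT1 to WT4. Slc6a13, a GABA transporter of the meninges, had 20.7, 12.8, 12.5 and 10.5 CPM in KO1 to KO4 and 5.44, 5.92, 2.54 and 15.9 CPM in WT1 to WT4. In both genes WT3 was lowest and WT4 lay inside the KO range. Cdh5, the cadherin of endothelial junctions, had 52.9, 41.6, 40.0 and 41.2 CPM in KO1 to KO4 and 23.2, 25.2, 22.2 and 43.0 CPM in WT1 to WT4, with a log2 fold change of 0.63 (SE 0.17) and an edgeR adjusted p of 0.417. Pecam1, an adhesion molecule of endothelium, was the 1 marker of the 27 without overlap, with 35.1, 28.8, 27.3 and 27.7 CPM in KO1 to KO4 and 24.8, 22.6, 20.6 and 24.4 CPM in WT1 to WT4.

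**Figure D2:**
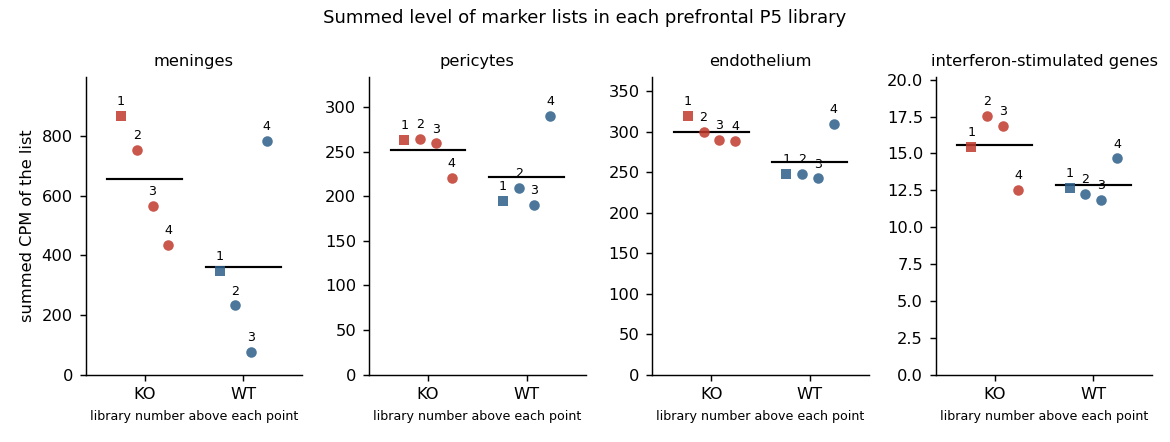
Summed CPM of 10 meningeal, 6 pericyte, 11 endothelial and 11 interferon-stimulated genes in each prefrontal P5 library, KO in red and WT in blue, with the library number above each point and a bar at the group mean. WT3 is the lowest library in each of the 4 panels, and WT4 is the highest WT library in each, above the KO mean for meninges, pericytes and endothelium.

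These counts rested on a few libraries. Without WT4, 10 of 10 meningeal markers passed an unadjusted p of 0.05, against 8.85% of all genes in that fit, and 26 genes were called over the whole table, 21 of them higher in KO, among them Cdh5, Vtn and Slc6a13. Without WT3, 0 of 10 meningeal and 2 of 11 endothelial markers passed, against 4.93% of all genes. Without KO1 and WT1, 3 of the 27 passed, each higher, against 1.89% of all genes. A meninges score, the mean log2 CPM of the 10 meningeal markers, was also used as a covariate, a setting chosen after seeing the data. It removes the difference of those 10 markers by construction, so they were not tested by it. In that fit 0 of 11 endothelial and 0 of 6 pericyte markers were higher, against 1.37% of all genes, 534 genes (2.94%) in place of 1503 had an unadjusted p under 0.05, and 7 of the 9 calls were kept. That score was 5.13, 4.88, 4.68 and 4.42 in KO1 to KO4 and 3.97, 3.65, 2.44 and 5.09 in WT1 to WT4.

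Immune lists of 2 kinds also held members past that threshold. Of 11 interferon-stimulated genes, 5 were higher in KO at an unadjusted p under 0.05 and 0 were lower, against 4.32% and 3.96% of all genes, with a median of 0.31. Irf7, the transcription factor that amplifies interferon signalling, had 0.911, 1.11, 0.895 and 0.824 CPM in KO1 to KO4 and 0.631, 0.464, 0.485 and 0.753 CPM in WT1 to WT4, without overlap. For Irf7 the log2 fold change was 0.68 (SE 0.24) with an edgeR adjusted p of 0.57, and Bst2, which tethers budding viruses, had 0.64 (SE 0.27). Ifit1 and Ifit3, RNA-binding effectors, had 0.91 (SE 0.41) and 0.86 (SE 0.34) but were under 1 CPM in every library. Of 12 microglial markers, 3 were higher, with a median of 0.21: Tmem119 (0.61, SE 0.20), C1qa (0.45, SE 0.22) and Csf1r (0.41, SE 0.19). Each was highest in KO1 and lowest in WT3. The striatal score described below was followed by 3 other microglial markers, Cx3cr1, Trem2 and Fcrls, while Tmem119, C1qa and Csf1r did not pass (edgeR adjusted p 0.183, 0.247 and 0.0509). Without KO1 and WT1, 2 of 11 interferon genes and 1 of 12 microglial markers were higher (1.89% of all genes), and with the meninges score as a covariate 0 of either were (1.37%). The part of meningeal tissue in these differences was not tested beyond those values.

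**Figure D3:**
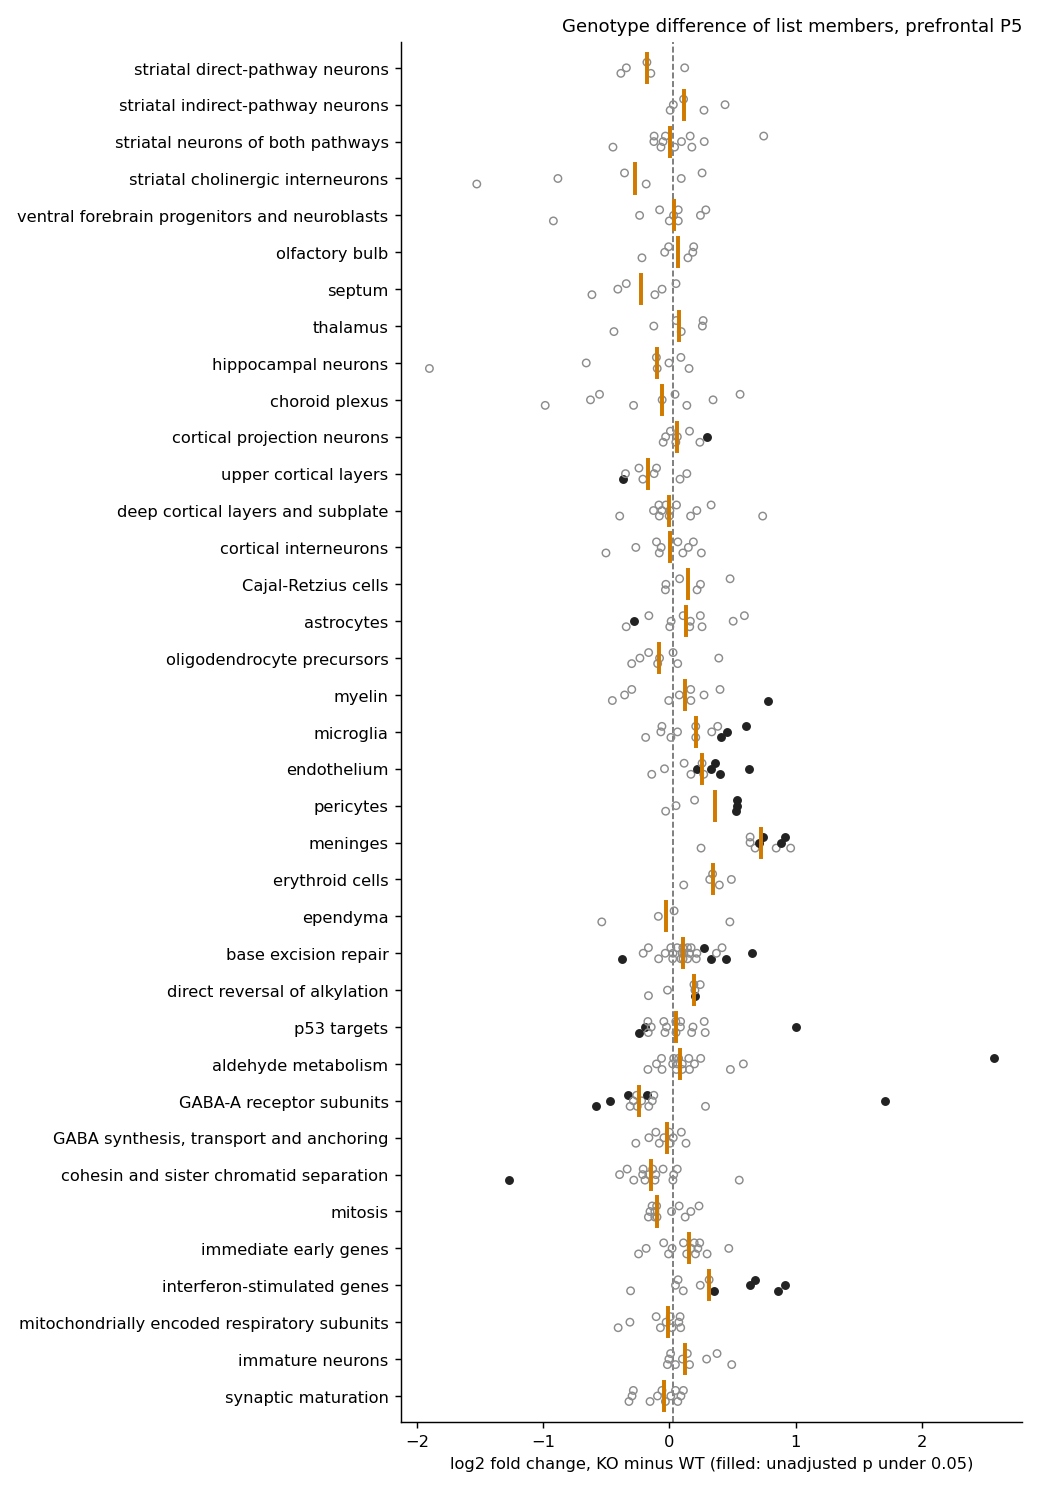
Log2 fold changes of KO against WT for the tested members of 37 gene lists, 24 of cell types or regions and 13 of functions. Filled points passed an unadjusted p of 0.05, orange bars are list medians and the dashed line is the median of all tested genes at 0.027; filled points gather to the right in the meningeal, pericyte, endothelial and interferon lists, and striatal lists have none.

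Lists of neurons and glia were read at the same unadjusted p of 0.05. Among cortical projection neuron markers 1 of 8 passed, Neurod2 (0.30, SE 0.11), a transcription factor of maturing excitatory neurons. Among upper layer markers 1 of 8 did, Rasgrf2 (-0.37, SE 0.14), and among astrocyte markers 1 of 12, the glutamate transporter Slc1a2 (-0.28, SE 0.10). Among 10 myelin genes only Cldn11 passed (0.78, SE 0.33), which had 8.73, 8.14, 8.21 and 6.41 CPM in KO1 to KO4 and 5.53, 2.84, 0.933 and 8.82 CPM in WT1 to WT4. Mbp, the myelin basic protein, had a log2 fold change of -0.0055 (SE 0.16), and Cldn11 was lowest in WT3, as the meningeal markers were, and highest in WT4. In the lists of deep layers and subplate, cortical interneurons, Cajal-Retzius cells, oligodendrocyte precursors, erythroid cells, immature neurons, synaptic maturation and mitochondrially encoded subunits, 0 members passed, with medians between -0.086 and 0.34. With the striatal score as a covariate, 3 of 12 synaptic maturation genes and 3 of 8 upper layer markers were lower, against 6.55% of all genes, and 2 of 8 projection neuron markers and 1 of 10 immature neuron genes were higher, against 4.72%. In the fit without that covariate, over all lists 40 of 367 distinct tested genes (10.9%) passed, against 8.28% of all tested genes, 30 of them higher in KO, and 3 were called: Aldh2, Gabra2 and Pttg1.

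Striatal RNA was high in library number 1 of both genotypes. Over 22 markers of striatal neurons the summed level was 1672 CPM in KO1 and 1652 CPM in WT1, against 989 to 1068 CPM in the other 6 libraries. The striatal score, the mean log2 CPM of the 22 markers, was 5.30 in KO1 and 5.30 in WT1 and between 3.01 and 3.53 in the others. In 19 of the 22 markers both KO1 and WT1 exceeded all 6 other libraries. The median excess was 3.51-fold in KO1 over the mean of the other KO libraries and 3.65-fold in WT1 over the mean of the other WT libraries. KO1 was above WT1 in 10 of the 22, so neither library held more of all markers.

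**Figure D4:**
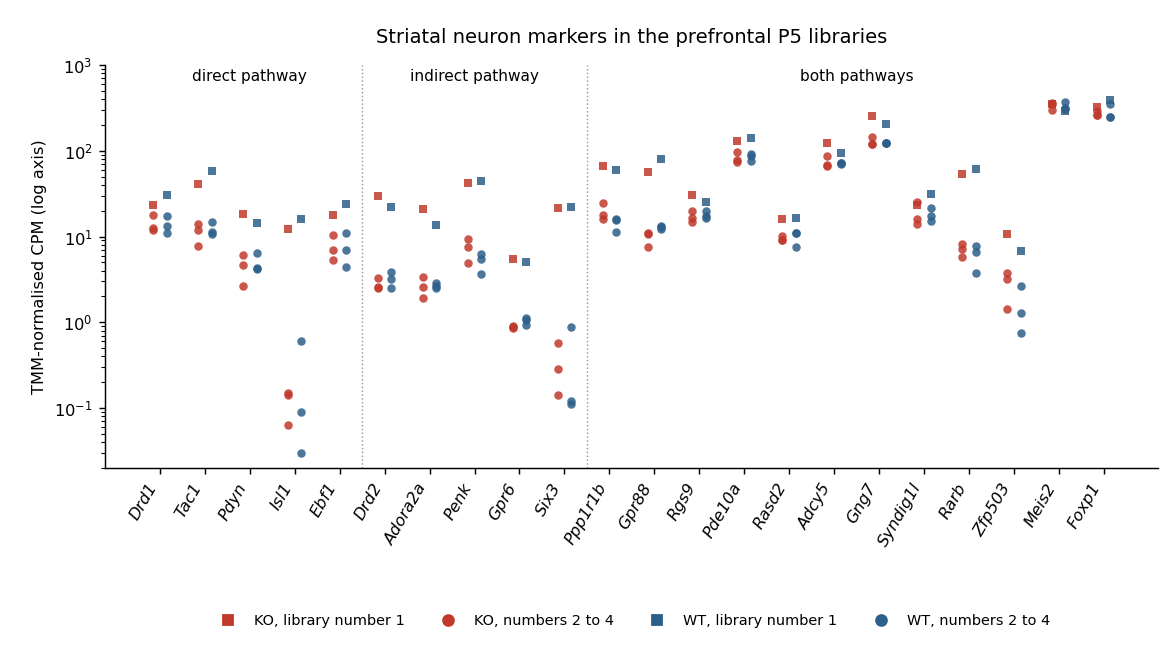
TMM-normalised CPM on a log axis of 22 striatal neuron markers in the 8 prefrontal P5 libraries, KO in red and WT in blue, with squares for library number 1. The squares of both genotypes lie above all circles for 19 of the 22 genes, and Meis2, Foxp1 and Syndig1l are the exceptions; the Isl1 value of 0 in WT3 is drawn at 0.03 CPM.

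Of the 22 markers the excess was largest for Isl1 and Six3. Six3, a transcription factor that indirect-pathway neurons need, had 21.6 CPM in KO1 against 0.573, 0.288 and 0.143 CPM in KO2 to KO4, and 22.1 CPM in WT1 against 0.870, 0.112 and 0.120 CPM in WT2 to WT4. Isl1, which specifies direct-pathway and cholinergic neurons, had 12.2 CPM against 0.151, 0.0639 and 0.143 CPM in KO, and 16.2 CPM against 0.609, 0 and 0.0903 CPM in WT. Isl1 had 0 counts in WT3, which allows up to 0.112 CPM. In 6 libraries these 2 genes were under 1 CPM, and in the 2 libraries numbered 1 they were above 10 CPM. Drd2, the dopamine receptor of the indirect pathway, had 29.6 CPM against 2.56, 2.49 and 3.26 CPM in KO, and 22.3 CPM against 3.89, 3.17 and 2.53 CPM in WT. Penk, the enkephalin precursor of the same neurons, had 42.1 CPM against 7.53, 9.46 and 4.87 CPM in KO, and 44.5 CPM against 6.18, 3.69 and 5.45 CPM in WT. The direct pathway showed the same pattern. Tac1, its substance P precursor, had 40.9 CPM against 12.1, 14.1 and 7.74 CPM in KO, and 58.3 CPM against 14.8, 11.4 and 10.8 CPM in WT.

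Most of the abundant markers showed less contrast. By mean level the 6 most abundant markers were Meis2, Foxp1, Gng7, Pde10a, Adcy5 and Ppp1r1b. Meis2 and Foxp1, transcription factors of both striatal and cortical neurons, had 350.0 and 324 CPM in KO1 and 289 and 391 CPM in WT1. For Meis2, KO1 lay inside the range of the other 6 libraries and WT1 just below it, and for Foxp1, KO1 lay inside it and WT1 above it. Gng7, a G protein subunit of striatal dopamine signalling, had 258 CPM against 121, 120.4 and 146 CPM in KO, and 206 CPM against 123, 122 and 125 CPM in WT. Pde10a, the striatal phosphodiesterase, was 1.55-fold higher in KO1 and 1.68-fold higher in WT1 than in the other libraries of their genotype, and Adcy5, the striatal adenylyl cyclase, 1.66-fold and 1.31-fold. Ppp1r1b, the phosphatase regulator DARPP-32, had 65.6 CPM against 15.8, 17.7 and 24.4 CPM in KO, and 59.1 CPM against 15.8, 11.3 and 16.2 CPM in WT.

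Some markers of cells that lie in or beside the striatum were higher in the same 2 libraries, while others of the same lists were not. Lhx8, a transcription factor of cholinergic neurons, had 3.64 CPM in KO1 and 11.3 CPM in WT1 and at most 0.0602 CPM in the other 6 libraries. Foxj1, which drives the motile cilia of ependymal cells on the ventricle wall, had 7.46 and 4.93 CPM, against 0.522 to 1.33 CPM in the others. Nkx2-1, a transcription factor of the ventral forebrain, had 2.33 and 8.02 CPM, against 0.319 to 1.15 CPM. In Lhx8 and Nkx2-1 WT1 was well above KO1, and in Foxj1 KO1 was above WT1. Zic4, which marks the septum, had 16.6 and 38.9 CPM, against 1.38 to 10.2 CPM. The 2 libraries thus carried these neighbouring markers in different proportions. Sp8, another ventral forebrain marker, had 7.02 and 12.65 CPM, inside the 3.32 to 18.1 CPM of the others. In the slope test described below, 4 of 9 ventral forebrain and 1 of 6 septal markers rose, against 4.52% of all genes. The 3 tested ependymal markers and the 1 tested cholinergic marker also rose.

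Each genotype held 1 such library, and no striatal marker passed the threshold between KO and WT. Of the 22 markers 0 passed an unadjusted p of 0.05, against 8.28% of all genes, and their median log2 fold change was 0.018, with a range of -0.45 to 0.75. The score had a mean of 3.80 ± 0.997 in KO and 3.76 ± 1.05 in WT (SD, n = 4 in each group). The spread within a genotype was therefore far above the difference between genotypes. Among the later prefrontal samples the score ranged from 3.12 to 5.98, so striatal RNA varied there too.

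Which other genes moved with striatal RNA was tested as a slope on the score within genotype over the 8 libraries. Of 16658 genes tested, 1757 outside the marker list were called, 735 rising and 1022 falling with the score, and with the markers the share was 10.7%. The slope rests on KO1 and WT1: without both, edgeR called 0 of 16564 genes, with 439 at an unadjusted p under 0.05. Without KO1 alone 95 genes were called, and without WT1 alone 2927. The 3 genes of smallest p that rose were Rxrg, a retinoid receptor of striatal neurons, Zfhx3, a homeobox transcription factor, and the imprinted gene Peg10. Rxrg had 30.3 CPM in KO1, 35.8 CPM in WT1 and 1.42 to 4.55 CPM in the others, and its slope was 1.84 (SE 0.075) log2 units per unit of score (edgeR adjusted p 4.43e-07). The slopes of Zfhx3 and Peg10 were 1.40 (SE 0.06) and 1.0 (SE 0.048).

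Genes of cortical neurons made up part of the opposite side. Neurod6, a transcription factor of cortical projection neurons, had 225 CPM in KO1, 219.6 CPM in WT1 and 354 to 526 CPM in the others, with a slope of -0.46 (SE 0.06) and an edgeR adjusted p of 0.00226. Cd24a, a surface protein of young neurons, and Cnr1, the cannabinoid receptor, had slopes of -0.39 (SE 0.054) and -0.34 (SE 0.048). Of 8 cortical projection neuron markers 4 fell with the score and 0 rose, against 6.14% and 4.52% of all genes, and of 8 upper layer markers 3 fell. Deep layer markers were divided, with 3 of 13 falling and Bcl11b rising (0.27, SE 0.053), a transcription factor that striatal projection neurons express as well. Of 10 genes for GABA synthesis, transport and anchoring 5 rose, with Slc32a1, the vesicular GABA transporter, at 0.62 (SE 0.05). Of 14 GABA-A subunits 4 fell, among them Gabra4 and Gabra5, and 2 rose, Gabrd and Gabre. Of 12 astrocyte markers 4 rose, and of 9 tested mitochondrially encoded subunits 6 fell. Of 27 vessel and meningeal markers 0 followed the score.

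**Figure D5:**
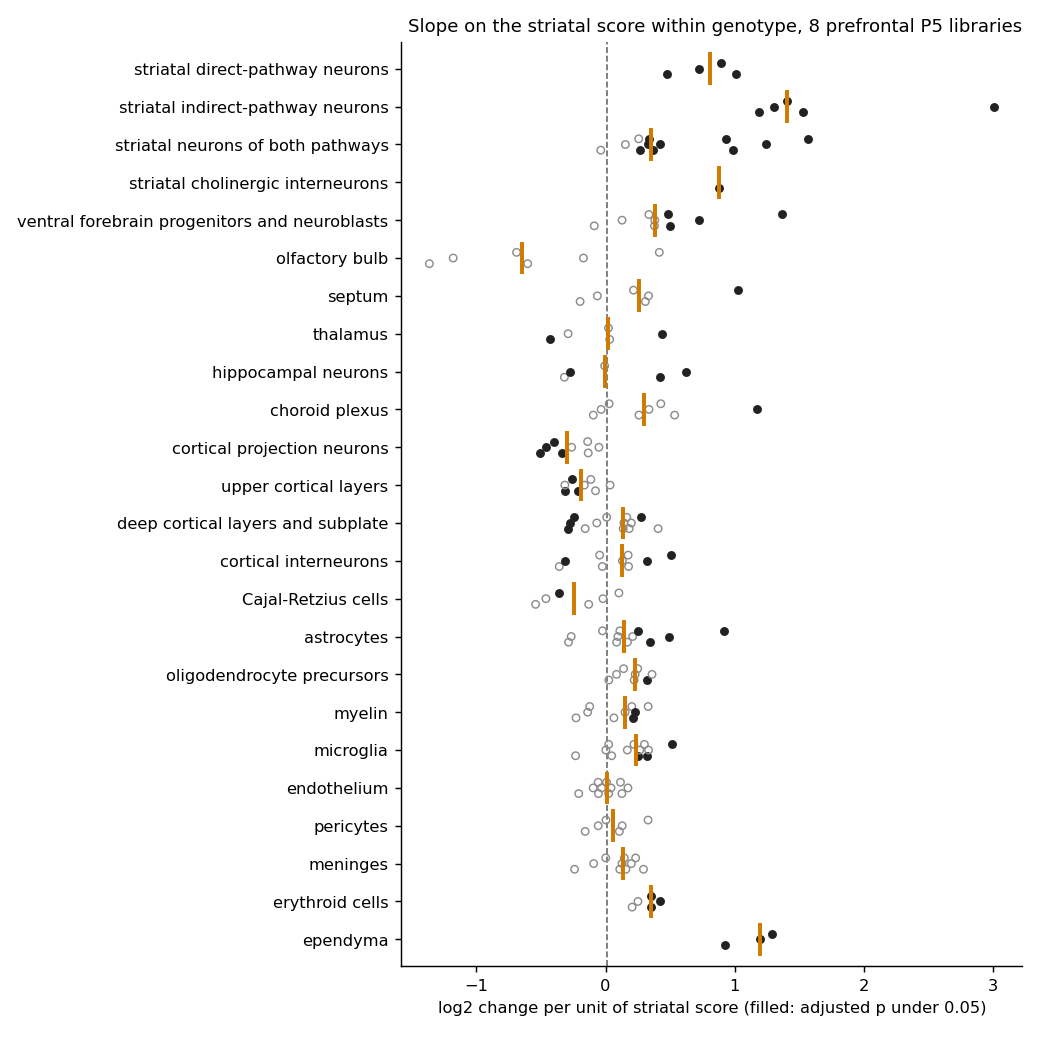
Slope on the striatal score within genotype, in log2 units per unit of score, for the tested members of 24 marker lists in the 8 prefrontal P5 libraries. Filled points passed an adjusted p of 0.05, orange bars are list medians and the dashed line is the median of all genes; the 3 striatal neuron lists at the top make up the score, ependymal markers lie to the right, and cortical projection neuron and upper layer markers lie mostly to the left.

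The genotype comparison was then repeated with striatal RNA taken into account. Of 1414 genes with an unadjusted genotype p under 0.05 that were also tested for the slope, 153 (10.8%) followed the score, close to the 10.7% of all genes, and 0 of the 9 called genes did. With the score as a covariate 15 genes were called (0.0827%), the 9 from before and 6 more, among them Hmox1, Gm38340, ENSMUSG00000109836, Fgd4 and Zfp322a. All 1503 genes kept their direction, 1449 of them stayed under an unadjusted p of 0.05, and the number of genes under it rose to 2044 (11.3%), of which 1188 (6.55%) were lower and 856 (4.72%) higher. Fgd4, a guanine nucleotide exchange factor, had 42.1, 71.7, 67.0 and 70.0 CPM in KO1 to KO4 and 69.6, 88.4, 109.6 and 93.0 CPM in WT1 to WT4. KO1 and WT1 were each the lowest of their genotype, and the covariate left its log2 fold change at -0.53 while the SE went from 0.15 to 0.10.

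Without KO1 and WT1 the comparison kept 7 of the 9 calls, without those of Klhl32 and G530011O06Rik, with 829 genes (4.53%) at an unadjusted p under 0.05. Of the 1503 genes past that p with all 8 libraries, 554 passed it without the 2. Aldh2 then had a log2 fold change of 2.42, Gabra2 1.84, Ublcp1 -1.32, Pttg1 -1.44 and Mpg -2.58, with edgeR adjusted p-values of at most 2.87e-05. The differences of these 5 genes were thus close to those with all 8 libraries. This fit, added after seeing the data, has 3 samples per genotype.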

How the data were processed

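Poly(A) RNA was sequenced per the labels' protocols as stranded single-end reads of 75 bases, after RNeasy extraction and SENSE mRNA library preparation. The deposited values are raw counts per gene, which the authors made with bcl2fastq 2.20.0.422, STAR 2.4.0 and HTSeq on GRCm38, per the submitters' processing notes. Whether strand was used in the counting is not given in the sources used here. Of 54838 gene IDs, 54723 were matched to a symbol and 54809 to a position in GENCODE M21.

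Counts were tested in R 4.3.3 with edgeR 4.0.16 (TMM scaling, filterByExpr by group, quasi-likelihood test, Benjamini-Hochberg adjustment, threshold 0.05). The genotype comparison at P5 used 1 fit of 24 prefrontal samples in 6 groups, with 18 residual degrees of freedom. The tissue interaction used all 48 samples, the age contrast set P5 against the mean of 6W and 6M, and the slope on the striatal score used the 8 samples compared, with genotype as a term and 5 residual degrees of freedom. Scores are means of log2 CPM with a prior count of 1. As a covariate, a score entered the 24-sample fit with its values for the 8 P5 samples. On simulated counts of 17919 genes shaped like the P5 comparison, 23.9%, 73.1% and 97% of genes changed by 0.5, 1 and 2 log2 units were recovered. The changed genes were taken from those above a minimum mean count, and each gene was drawn independently. Differences that many genes of a library share, such as striatal or meningeal RNA, were not simulated, so recovery in these 8 samples may differ.

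Named genes were Mpg, Aldh2, all called genes, further genes without overlap until 10 stood in each direction, up to 4 members per list by unadjusted p, the 6 most abundant striatal markers and 3 slope genes each way. Other genes (Drd2, Isl1, Six3, Penk, Tac1, Lhx8, Foxj1, Nkx2-1, Zic4, Bcl11b, Thg1l, Gm38340, Tshz3, Fgd4 and genes of the quality checks) were named after their values were seen. The members and lists were chosen with earlier results of these data known. Replicate numbers were not used as pairs, since the labels do not say what they mark and not every pair correlated: the deviations of same-numbered KO and WT libraries correlated at 0.637, 0.116, 0.198 and -0.332 over 9759 genes. Alternatives were other scaling, filters, DESeq2 1.42.0, fewer samples, each library left out, a replicate block and both scores as covariates. Fits without KO1 and WT1 and with the meninges score were chosen after seeing the data. Some results were left out and are not reported here.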

Additional observations from a re-analysis of the deposited data

Results flagged for a closer look

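Among 58 sets of 4 values tested within a genotype, 9 held a library far from the other 3, where chance gives about 2.9, and 8 of the 9 such libraries were number 1. The sets are not independent, since they share the same libraries and include striatal markers and genes picked from this contrast. The 2.9 is therefore not a test of the 9. In KO1 Aldh2 was at 23.21 CPM (others 16.1 to 16.2), Pskh1 at 12.68 CPM (7.09 to 7.71) and Pttg1 at 5.22 CPM (3.47 to 3.58), each above the other KO libraries, and Ublcp1 was below them at 4.42 CPM (6.63 to 6.81). The striatal score of KO1 was 5.303 (3.27 to 3.34). In WT1 the striatal markers Gng7, Adcy5 and Ppp1r1b were at 206.4, 93.43 and 59.12 CPM, above the other WT libraries. E230020A03Rik was at 1.475 CPM in WT4 (2.58 to 2.70).

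The genotype effect differed between groups by an interaction test in 3 cases. The log2 effect on Car14 at P5 was 2.962 higher in prefrontal cortex than in hippocampus. The log2 effects at P5 in prefrontal cortex minus the later ages were 4.348 for Pttg1 and 1.038 for Aldh2.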

How the results depend on the processing

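Each of the 20 named genes kept its direction in every setting. Of 37 list medians, 26 changed sign in at least 1 setting, among them those of microglia (0.21 with all libraries, -0.14 with the meninges score as a covariate) and astrocytes (0.14 and -0.18). The 9 calls of the genotype comparison became 14 with no filter on low counts, 18 with DESeq2, 5 with only the 8 samples compared, 15 with the striatal score as a covariate and 7 to 26 when 1 library was left out, with 26 without WT4. They were 9 with median-of-ratios size factors and 9 at a mean of at least 10 counts. The unadjusted split of 784 higher and 719 lower became 856 and 1188 with the striatal score, and 345 and 484 without KO1 and WT1. The tissue difference had 1 call, and 42 with no filter, 3 with DESeq2, 0 without KO1 and WT1 and 0 to 29 when 1 library was left out (0 without KO1 and without WT2, 2 without KO4, 29 without WT4). The age difference had 2 calls, and 1 without KO1 and WT1 and 1 to 4 when 1 library was left out (1 without WT2 and without WT3, 4 without KO4). The slope on the striatal score had 1757 calls, and 3268 with no filter, 2922 with DESeq2, 2932 with a score from 7 core markers, 0 without KO1 and WT1 and 95 to 2927 when 1 library was left out, from without KO1 to without WT1. Its split of 735 rising and 1022 falling became 82 and 13 without KO1 and 366 and 284 without WT3. The cause of these shifts was not tested.

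With a replicate block the genotype comparison had 8 calls, the tissue difference 1 and the age difference 2, and the block ended the call of G530011O06Rik. Of 8 libraries, 3 were closest to the library of their own number in the other genotype. Of 360 values of named genes over all settings, 333 kept both direction and side of the threshold, and 27 did not. Of 666 list counts, 490 stayed within 1.5 times and 176 did not, so counts of a few members are unstable. Genes near the floor, such as Gm12663, Fas and Ifit1, are limited by depth.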

Other observations

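A pair of neighbouring genes on chromosome 12, picked after their values were seen, was low in 3 KO libraries and not in KO4. Eipr1, from 28751803 to 28869865 in GRCm38, acts in the recycling of endosomes and in dense-core vesicles. Its level was 13.9, 10.4, 11.4 and 24.2 CPM in KO1 to KO4 and 23.5, 25.4, 27.4 and 21.8 CPM in WT1 to WT4, so KO4 was inside the WT range and the other 3 KO libraries were below it. The log2 fold change was -0.71 (SE 0.17) with an edgeR adjusted p of 0.305 with all libraries, and -1.04 with an adjusted p of 1.13e-05 without KO4. With all libraries it was called by DESeq2 (adjusted p 0.0277) and by edgeR with no filter on low counts (adjusted p 0.0301). Trappc12, a subunit of a vesicle-tethering complex, lies next to it from 28690628 to 28750472 and had 23.2, 18.1, 16.3 and 38.8 CPM in KO1 to KO4 and 37.5, 35.3, 32.5 and 32.9 CPM in WT1 to WT4, with KO4 above all WT libraries. Its log2 fold change was -0.52 (SE 0.17), at an edgeR adjusted p of 0.516, with all libraries and -0.85 (edgeR adjusted p 0.000448) without KO4. The pair was picked because it was called without KO4, so the p-values of that fit are a description only.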
